A study of Rattus norvegicus with 22 samples.

Results

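The genes described here are the rat olfactory receptors whose RNA was measured above background in isolated male germ cells. A probe counted as an olfactory receptor where its accession led to a gene with a current symbol of Or and a number, or an older symbol of Olr and a number. Of 1150 such genes with a probe, 171 (14.9%) were kept because the scanner software marked them as well above background on at least 4 arrays of 1 or more groups. The genes were thus chosen by the detection flags of these arrays, so the detection counts below are descriptions and are not tested.

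The arrays were one-colour Agilent whole-genome rat arrays, 22 in all, each labelled with the total RNA of cells under 1 rat number. Male rats had received cyclophosphamide, an alkylating anticancer drug, or saline by gavage, at 6 mg/kg of the drug, on 6 days per week for 4 weeks. Round spermatids, the haploid cells after meiosis, gave 6 arrays of cyclophosphamide rats and 6 of saline rats. Pachytene spermatocytes, the cells in meiotic prophase, gave 5 arrays of each. Both cell types were separated by sedimentation at unit gravity, so each sample is a fraction enriched for a cell type and not a pure one. The strain and the age of the rats are not given in the sources used here. Among the pachytene arrays of cyclophosphamide rats, 2 carry the rat number 16, and whether they came from 1 animal is not given, so these 5 arrays may stand for fewer than 5 animals.

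Olfactory receptors are G protein-coupled receptors that detect odorants in the sensory neurons of the nose, where each neuron is known to use a single receptor gene. There the receptor acts through the G protein Golf (Gnal), adenylyl cyclase 3 (Adcy3) and a cyclic nucleotide-gated channel (Cnga2, Cnga4 and Cngb1). Receptor transcripts are also known from the testis of several mammals, and the SCR D and SCR G receptor families were described earlier from rat spermatids. RefSeq lists SCR D names among the synonyms of Or10al6 and Or10al27, and SCR G names among those of Or6d13b and Or6d13.

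RefSeq windows of 250 bases before to 50 bases after the gene start, on assembly GRCr8, were found for 141 of the 171 genes. In 140 of these 141 windows the base after the first 250 begins an ATG, so the window surrounds the annotated coding start and the start of transcription in germ cells may lie elsewhere. The windows of Or10al5b (chr20:804650-804949, minus strand) and Or10al7 (chr20:511761-512060, plus strand) are shown because these 2 genes lie in 1 cluster and had similar values on the arrays. Capitals mark the runs of at least 12 aligned bases that are identical in both, 81 bases in each, and 234 of 309 alignment columns (75.7%) were identical.

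Or10al5b: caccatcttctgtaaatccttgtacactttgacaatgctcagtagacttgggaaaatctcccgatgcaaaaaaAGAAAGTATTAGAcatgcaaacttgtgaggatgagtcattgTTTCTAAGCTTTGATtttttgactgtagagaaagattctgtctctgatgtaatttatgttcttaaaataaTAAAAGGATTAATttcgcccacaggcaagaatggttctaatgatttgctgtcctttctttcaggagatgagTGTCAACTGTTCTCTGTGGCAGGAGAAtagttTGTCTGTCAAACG
Or10al7: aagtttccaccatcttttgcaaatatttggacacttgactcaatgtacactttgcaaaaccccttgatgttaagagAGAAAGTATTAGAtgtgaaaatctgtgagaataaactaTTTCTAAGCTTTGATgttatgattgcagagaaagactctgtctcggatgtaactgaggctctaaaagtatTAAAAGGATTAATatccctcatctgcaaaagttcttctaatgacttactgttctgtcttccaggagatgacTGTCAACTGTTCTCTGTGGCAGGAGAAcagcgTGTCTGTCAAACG

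The spermatid regulator CREM is known to bind cyclic AMP response elements, so the windows were searched on both strands for the element TGACGTCA and for its part TGACGT, which every TGACGTCA also holds. TGACGTCA was in 1.83% of 33469 windows of all genes and in 0 of the 141 detected receptors. TGACGT was in 7.94% of all windows, in 1.74% of 977 olfactory receptor windows and in 3 of the 141 (2.13%), those of Or52b2, Or8s10 and Or2y14. The windows of Or8s10 (chr7:131448105-131448404, plus strand) and Or2y14 (chr10:34272134-34272433, plus strand) are shown with that match in capitals, which Or2y14 carries on the opposite strand. Among genes that span more than 1100 bases, TGACGT was in 2 of 24 windows of detected receptors (8.33%), those of Or8s10 and Or2y14. For all genes of such a span the share was 8.22% of 31122 windows. Where the coding start lies in the windows of all genes is not given here, so the shares may compare unlike regions. A match of letters is a description and shows no binding.

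Or8s10: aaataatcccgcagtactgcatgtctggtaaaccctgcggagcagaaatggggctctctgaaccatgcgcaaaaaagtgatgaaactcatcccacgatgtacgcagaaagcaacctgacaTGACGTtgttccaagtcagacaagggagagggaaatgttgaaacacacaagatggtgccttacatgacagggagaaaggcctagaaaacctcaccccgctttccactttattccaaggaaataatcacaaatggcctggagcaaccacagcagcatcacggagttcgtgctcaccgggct
Or2y14: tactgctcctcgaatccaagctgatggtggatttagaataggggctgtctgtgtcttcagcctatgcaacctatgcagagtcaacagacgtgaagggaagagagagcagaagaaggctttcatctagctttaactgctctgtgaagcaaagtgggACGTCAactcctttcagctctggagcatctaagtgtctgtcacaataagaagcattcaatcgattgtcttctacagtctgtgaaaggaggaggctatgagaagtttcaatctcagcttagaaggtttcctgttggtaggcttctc

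Levels are given as percent of each array's own 75th percentile of signal over probes that are not controls, and differences as log2 with their standard errors (SE). Across the 22 arrays that percentile was an intensity of 1069 to 2423, and 65.3% to 76.4% of probes were above background. The array of cyclophosphamide rat 16 in round spermatids had the lowest value of both. All 17 measured round spermatid markers were higher in round spermatids than in pachytene spermatocytes in both treatments, and 14 of 15 pachytene markers were lower. The summed level of the round spermatid markers was 70935 to 115124 in round spermatids of cyclophosphamide rats and 69009 to 108276 in those of saline rats. In pachytene spermatocytes that sum was 17936 to 35206 in cyclophosphamide rats and 19306 to 45325 in saline rats, so the pachytene fractions held such transcripts too.

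Markers of other cells also differed between the fractions. In both treatments each of the 10 macrophage or leukocyte markers that could be tested was higher in round spermatid fractions, with sums of 5338 to 8890 in cyclophosphamide rats and 5326 to 8164 in saline rats, against pachytene sums of 876 to 1820 in cyclophosphamide rats and 993 to 2229 in saline rats. Most of these macrophage sums came from Aif1. It averaged 6193 and 6335 in round spermatids of cyclophosphamide and saline rats and 1134 and 1471 in their pachytene spermatocytes. The next highest marker in round spermatids, Lyz2, averaged 263 and 239 there. Of 7 tested peritubular myoid markers 6 were higher in round spermatid fractions. Of 10 Sertoli markers 7 were lower there and 1 was higher, and all tested Leydig markers were lower, with Lhcgr above background on no array. Of 3 tested red blood cell markers 1 was lower. The part of these cells in the receptor values was not tested, and in such bulk RNA fewer cells of a type cannot be told apart from less RNA per cell. Slides 1 and 2 each held both cell types and both treatments, while slides 3 and 4 held pachytene arrays only, so values within slides 1 and 2 are given where they bear on a result.

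Most olfactory receptor genes were not detected in either cell type. Of the 1150 genes, 834 (72.5%) were above background on no array, and 145 on 1 to 3 arrays of their best group. By the same rule 19752 of 25725 other genes with a probe (76.8%) were detected. The detected receptors came from both classes of the family. The fish-like class I held 18 of 166 detected receptors with a family number (10.8%), against 120 of 1094 with a probe (10.97%). Of the 47 genomic clusters with a probe, 30 held at least 1 detected receptor. Of the 171 genes, 97 were detected on at least 4 arrays of every group, and 69 were above background on all 22 arrays.

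The median number of the 171 receptors above background was higher on round spermatid arrays, and these genes were kept by the same flags. Over all probes the share above background was 65.3% to 76.4% in round spermatids and 66.4% to 68.9% in pachytene spermatocytes of cyclophosphamide rats. For saline rats it was 69.2% to 73.7% and 68.0% to 72.7%. In cyclophosphamide rats a round spermatid array had 106 to 168 of the 171 genes above background (median 157.5), against 106 to 126 on a pachytene array (median 113). In saline rats the numbers were 133 to 162 in round spermatids (median 153) and 111 to 147 in pachytene spermatocytes (median 124). The lowest round spermatid value, 106, was that of cyclophosphamide rat 16, and the other 5 arrays of its group had 147 to 168. Of the 171 genes, 118 passed the detection rule in a group of each cell type, 47 in a round spermatid group alone and 6 in a pachytene group alone. The rule asks for 4 of 6 arrays in a round spermatid group but 4 of 5 in a pachytene group. The same counts over all genes are not given here. These 47 and 6 genes had to differ between the cell types by the way they were chosen.

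**Figure D1:**
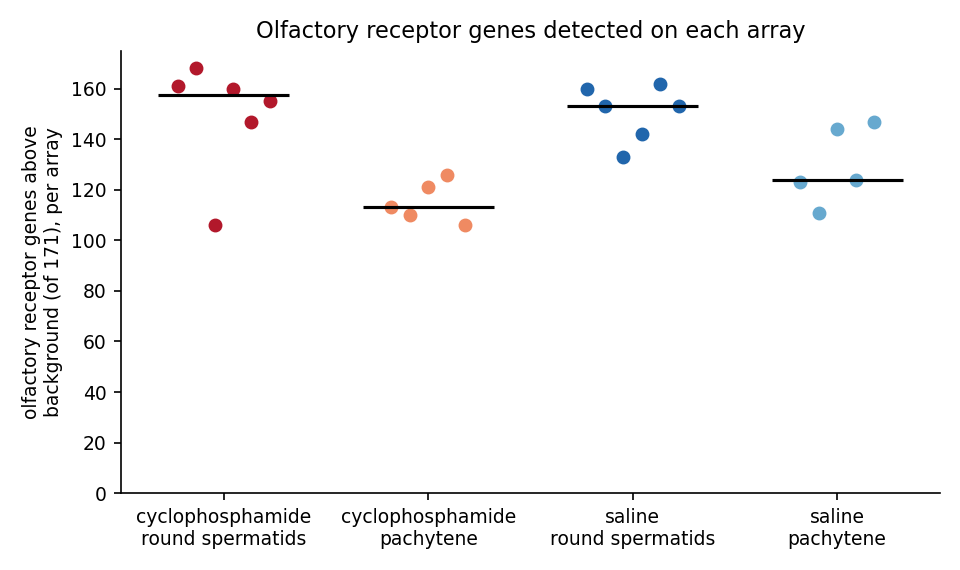
Number of the 171 olfactory receptor genes above background (vertical axis) on each array, by group, with 1 point per rat and the bar at the group median. The round spermatid arrays have 106 to 168 in cyclophosphamide rats and 133 to 162 in saline rats, the pachytene arrays 106 to 126 and 111 to 147 in the same treatments.

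At the edge of the rule, 19 genes reached exactly 4 arrays in their best group and 23 reached 3. Just inside it, Or10ak7e averaged 2.53 in round spermatids of cyclophosphamide rats, 2.51 in those of saline rats, and 1.80 and 1.87 in the pachytene spermatocytes of the same treatments, in percent of the 75th percentile. Or2ag1 averaged 1.73, 1.46, 1.32 and 1.52 in the same order of groups, and Or2ak5e 1.98, 1.60, 1.25 and 1.35. Just outside it, Olr1523 averaged 2.17, 2.03, 0.470 and 0.548, and Or10ag57 1.34, 1.65, 1.16 and 1.74. The genes on both sides of the edge were thus near the background, and detection there depended on single arrays.

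Between the cell types, more of the detected receptors were higher in round spermatids than lower. The share that was higher was above that of all tested genes in the fit reported here. With another background correction it was near or below that of all genes, and in saline rats on slides 1 and 2 alone it was below it. In cyclophosphamide rats 85 of 150 tested receptors (56.7%) passed as higher, where 38.8% of all 19332 tested genes did, and 14 (9.33%) passed as lower, where 40.4% of all genes did (limma, Benjamini-Hochberg adjusted p of 0.05). In saline rats 68 of 147 (46.3%) passed as higher, against a background of 38.3% of 19401 genes, and 15 (10.2%) as lower, against 37%. The median difference of the tested receptors was 0.60 log2 in cyclophosphamide rats, against -0.02 over all tested genes, and 0.40 in saline rats, against 0.01. Differences over 2-fold were called for 55 higher (36.7%) and 5 lower receptors (3.33%) in cyclophosphamide rats, against 27.1% and 24.3% of all tested genes, and for 48 (32.7%) and 5 (3.4%) in saline rats, against 25.3% and 20.7%.

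These counts hold genes that were detected only where they were high. Among the 97 receptors detected in every group, 44 (45.4%) were higher and 12 (12.4%) lower in cyclophosphamide rats, against 35.8% and 42% of 17150 genes detected in every group. In saline rats 32 (33%) were higher and 13 (13.4%) lower, against 36% and 38.2%. The share of these 97 that was higher was thus above the background in cyclophosphamide rats and below it in saline rats, while the share that was lower was below the background in both. Over all tested receptors, normexp background correction in place of the processed signal gave 53 of 150 higher (35.3%) and 19 lower (12.7%) in cyclophosphamide rats, against 33.8% and 41.2% of all genes under the same correction. In saline rats it gave 46 of 147 higher (31.3%) and 15 lower (10.2%), against 34.2% and 37.3%. The share that was higher was then near the background in cyclophosphamide rats and below it in saline rats, while the share that was lower stayed below it. The median of the tested receptors was then 0.15 and 0.08 log2 in cyclophosphamide and saline rats, against -0.08 and -0.04 over all genes.

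No receptor was called in opposite directions in the 2 treatments, which share no array, and neither was any other gene. Of 138 receptors tested in both, 63 were higher in round spermatids in both, and 10 were lower in both. Of 19090 genes of any kind tested in both, 6873 were higher in both, 6943 lower in both and 0 opposite. Of the 138 receptors, 17 passed as higher in cyclophosphamide rats alone and 1 in saline rats alone, while 3 passed as lower in cyclophosphamide rats alone and 4 in saline rats alone. The same split over all genes is not given here, and a call in 1 treatment alone does not test a difference between treatments. The difference between the treatments themselves is given further on. Of the 171 genes, 12 could be tested in no comparison because too few of their arrays were above background.

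**Figure D2:**
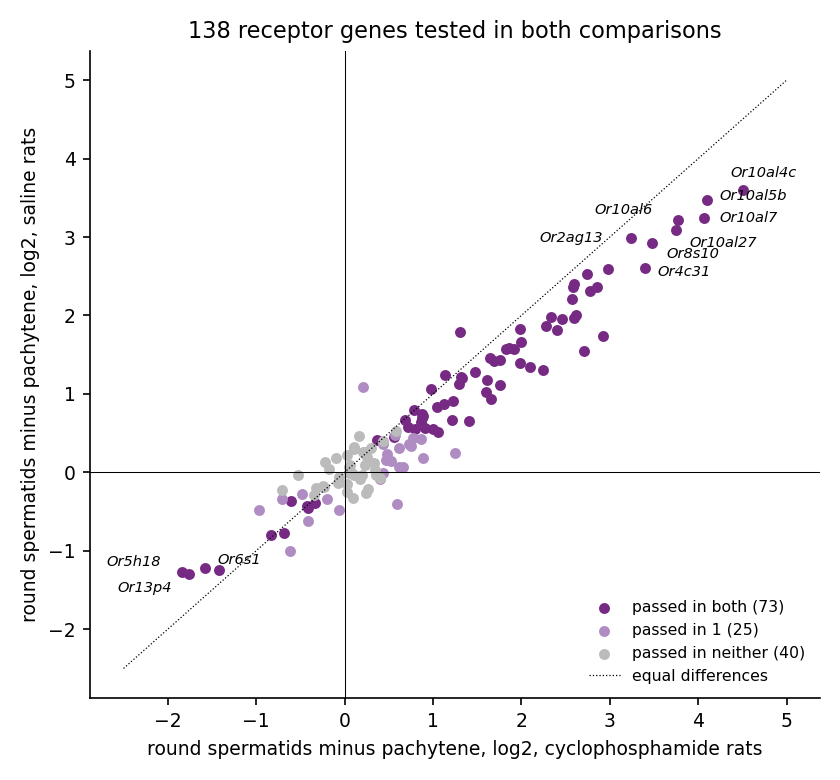
Round spermatid minus pachytene difference in log2 of 138 receptors tested in both treatments, cyclophosphamide rats on the horizontal axis and saline rats on the vertical axis, with 1 point per gene and the dotted line at equal differences. The 5 Or10al genes lie at the upper right end between 3.75 and 4.50 in cyclophosphamide rats and between 3.09 and 3.60 in saline rats.

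The 5 Or10al receptors with a probe had the 5 largest rises in both treatments in the fit over all arrays. With slides 1 and 2 alone they did not, since they then lay at 2.69 to 3.06 log2 in cyclophosphamide rats, against 3.50 for Or6d12c, and at 2.32 to 2.71 in saline rats, against 2.96 for Or2ag13. With slide as a block the largest other rise, that of Or2ag13, was 3.31 and 2.83, against at most 3.43 and 2.36 for an Or10al gene, and with normexp that of Or4c31 was 2.97 and 2.31, against at most 2.33 and 2.20. Or10al4c and Or10al5b were chosen for their values in saline rats, so those values are a description, and the cyclophosphamide arrays were not used to choose them. Or10al4c was at 17.0 to 51.5 in round spermatids of cyclophosphamide rats (median 26.0), against 0.358, 3.1, 2.87, 0.268 and 3.85 in the 5 pachytene samples. The cell types did not overlap, and the difference was 4.50 ± 0.72 log2 (SE). Or10al4c entered that test through its round spermatid arrays alone, so no p is given. In saline rats it was at 19.6 to 52.9 in round spermatids (median 35.0), against 7.69, 0.320, 3.67, 4.94 and 3.09 in pachytene spermatocytes, a difference of 3.60 ± 0.72.

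Or10al5b ran almost parallel to Or10al4c. It was at 13.8 to 34.0 in round spermatids of cyclophosphamide rats (median 17.2), against 0.351, 2.73, 2.18, 0.371 and 2.96 in pachytene spermatocytes. In saline rats it was at 12.9 to 36.8 in round spermatids (median 24.3), against 5.06, 0.366, 2.31, 3.41 and 2.33. Every round spermatid array was again above every pachytene array, by 4.10 ± 0.61 log2 in cyclophosphamide rats and by 3.47 ± 0.61 in saline rats.

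The other 3 Or10al genes showed the same order of cell types. Or10al7 was at 19.1 to 45.6 in round spermatids and 0.485 to 5.22 in pachytene spermatocytes of cyclophosphamide rats, and at 17.1 to 50.2 and 1.21 to 7.29 in those of saline rats, with differences of 4.07 ± 0.53 and 3.24 ± 0.53 log2. Or10al27 differed by 3.75 ± 0.42 and 3.09 ± 0.42, and was above background on 1 of 5 pachytene arrays of cyclophosphamide rats and 3 of 5 of saline rats. Or10al4c, Or10al5b and Or10al7 were above it on 3 of 5 and 4 of 5, so the size of all these differences rests in part on pachytene signals at or near background. Or10al6 was above background on no pachytene array of cyclophosphamide rats, so its fold there is a bound, at least 7.15-fold higher in round spermatids. All Or10al genes entered the test in cyclophosphamide rats through their round spermatid arrays alone, so no p is given for them there. The Or10al6 bound sets the mean of the bright group against the lowest signal above background on each dim array, or the probe's own signal where that is higher. Such bounds hold for the processed signal only. With normexp the Or10al6 difference in cyclophosphamide rats was 1.38 log2, below its bound. In saline rats, where 2 of 5 pachytene arrays were above background, Or10al6 differed by 3.22 ± 0.54.

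The low end of the pachytene range was set by 3 arrays. Or10al4c was not above background on the arrays of cyclophosphamide rat 7 (0.358), of 1 of the 2 cyclophosphamide samples numbered 16 (0.268) and of saline rat 16 (0.320). All 3 lie on slides 3 and 4, where the other 3 arrays were at 2.87, 4.94 and 3.09. The summed round spermatid marker levels of the 3 low arrays were, in the same order, 24811, 17936 and 38060, and the pachytene array with the highest sum, 45325, that of saline rat 13, also had the highest Or10al4c value of 7.69. The part of slide and of round spermatid RNA in these values was not tested. Within slide 1 the Or10al4c difference was 3.23 in cyclophosphamide rats and 2.28 in saline rats, and within slide 2 it was 2.89 and 2.94. Each of these rests on 1 pachytene array per treatment. Over all settings tried, which reuse the same arrays, it was 2.33 to 4.90 in cyclophosphamide rats and 2.20 to 3.98 in saline rats. As the gene was chosen on saline arrays, these ranges are a description.

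**Figure D3:**
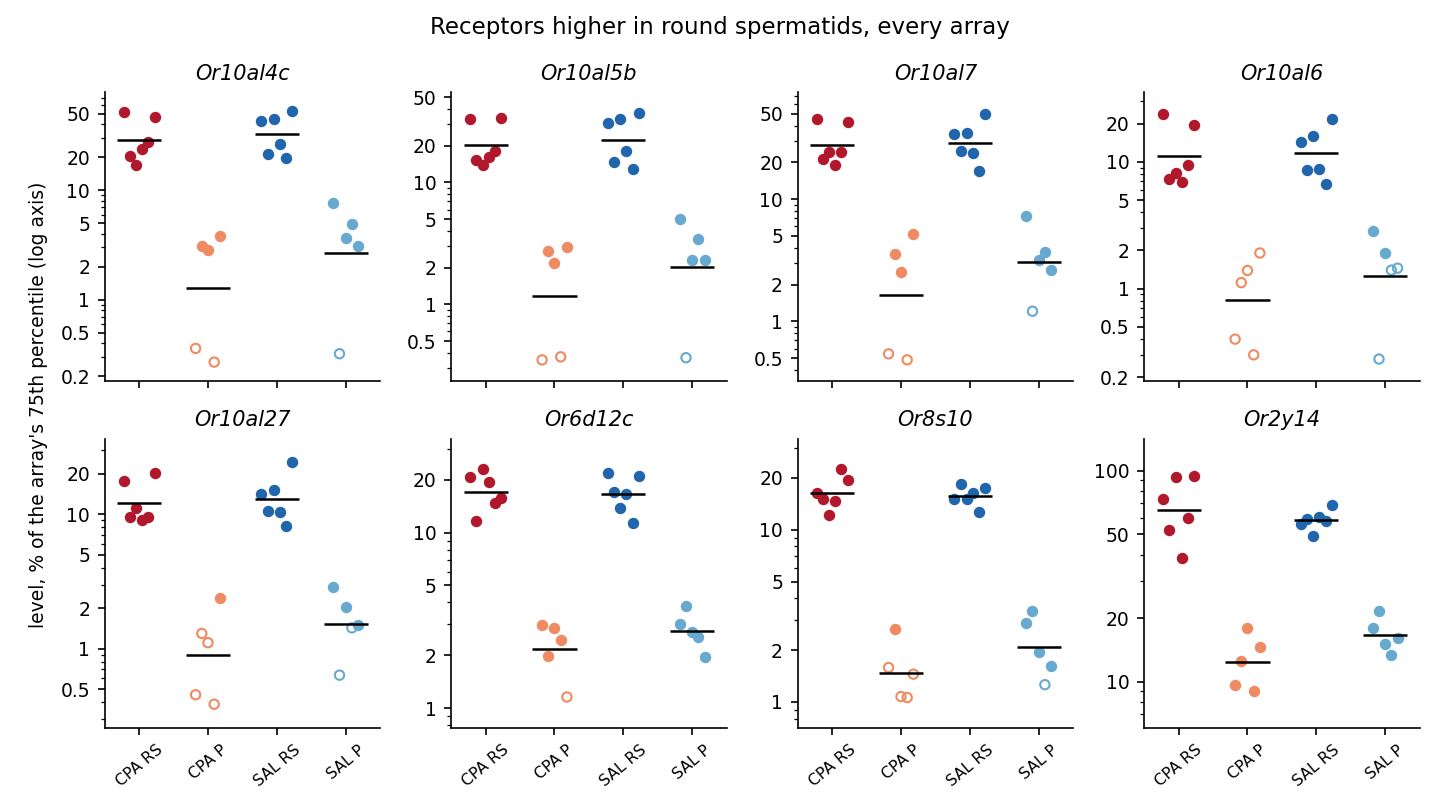
Levels of 8 receptors that were higher in round spermatids (RS) than in pachytene spermatocytes (P) of cyclophosphamide (CPA) and saline (SAL) rats, on a log axis in percent of the array's 75th percentile, with 1 point per rat, open where not above background, and the bar at the geometric mean. The round spermatid and pachytene points do not overlap in either treatment for any of the 8, and the Or10al panels share the same low pachytene arrays.

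The genes whose pattern was most like that of Or10al4c were the other Or10al genes. Over the 22 arrays its Pearson correlation was 0.997 with Or10al5b, 0.986 with Or10al6, 0.983 with Or10al7 and 0.972 with Or10al27, and the next gene of all tested was Rps6ka6, a ribosomal protein S6 kinase, at 0.936. For Or10al5b the 5 nearest genes were Or10al4c, the same 3 Or10al genes and Rps6ka6 at 0.944. Since the arrays fall into 2 cell types, the values within each type were computed too, and for Or10al4c they were 0.873 to 0.987 over the 12 round spermatid arrays and 0.940 to 0.995 over the 10 pachytene arrays. Whether probes of such related genes also bound each other's transcripts was not tested, as probe sequences were not used here.

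The Or10al genes lie together in a cluster of 84 olfactory receptor genes and pseudogenes on rat chromosome 20, counted in RefSeq with gaps of at most 1 Mb. Of these 84, 54 had a probe and 15 were detected. All 7 Or10al genes stand between the 20th and 34th place of that order, and the 5 with a probe were all detected. In cyclophosphamide rats 13 of the 15 could be tested, and 11 were higher in round spermatids and 0 lower, 5 of the 11 being the Or10al genes. The Or10al genes, Or14j3d and Or14j3e entered that test through their round spermatid arrays alone. In saline rats 11 could be tested, and 7 were higher and 0 lower, the 5 Or10al genes and 2 others. Or10al6, Or10al27 and Or14j3d entered there through their round spermatid arrays alone, so the counts in both treatments are a description. Or1o11, Or12d13 and Or12d2b, which are among the 11 in cyclophosphamide rats, did not pass in saline rats, at 0.07 ± 0.20, 0.19 ± 0.20 and -0.40 ± 0.27. The backgrounds are the 38.8% and 38.3% of all genes given above. The nearest neighbours with a call after them in the order, Or14j3d and Or14j3e, were also higher, Or14j3d by at least 2.41-fold in cyclophosphamide rats and at least 2.37-fold in saline rats, as it was above background on no pachytene array. Or14j3e was at least 2.86-fold higher in cyclophosphamide rats and differed by 1.03 ± 0.20 log2 in saline rats. Or14j5e, directly beside Or10al7, did not pass, with 0.22 ± 0.15 and 0.24 ± 0.15, and none of the 7 probed genes that follow it up to Or10al6 was detected.

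**Figure D4:**
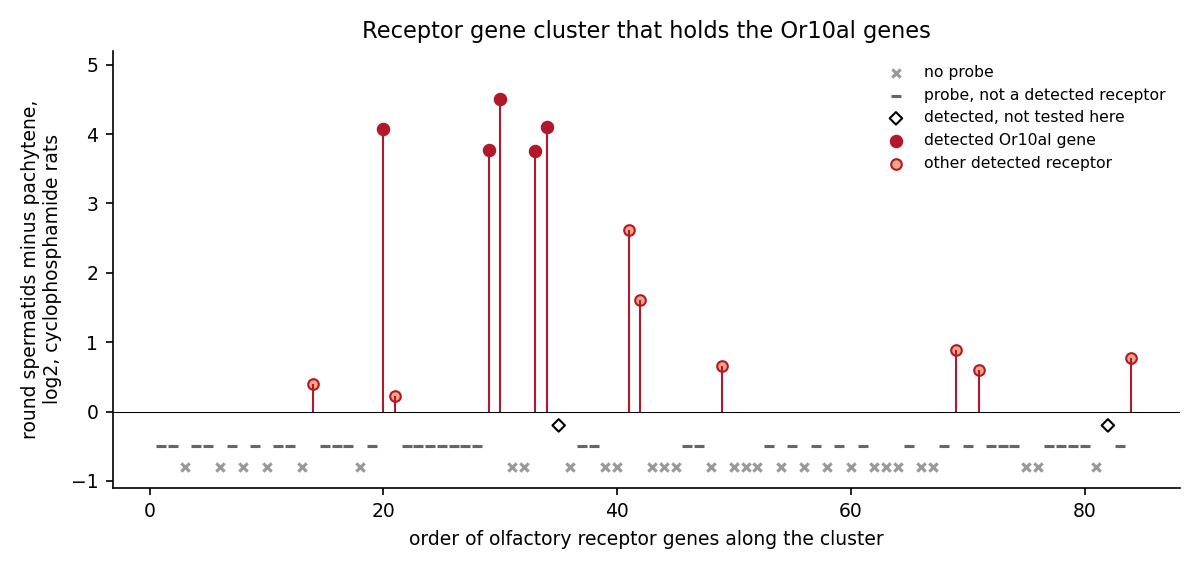
Round spermatid minus pachytene difference in log2 of cyclophosphamide rats (vertical axis) of the receptors in the cluster that holds the Or10al genes, placed by their order among its 84 olfactory receptor genes (horizontal axis). The 5 detected Or10al genes stand at 3.75 to 4.50, while the marks under the line show genes with a probe that were not detected, genes with no probe and the 2 detected but not tested.

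A second family with a spermatid history, Or6d, was also high in round spermatids. Of 9 Or6d genes with a probe 6 were detected, and 5 of 6 tested were higher in cyclophosphamide rats and 5 of 5 in saline rats. Of all tested genes 38.8% and 38.3% were. Or6d12c was at 11.6 to 22.9 in round spermatids and 1.16 to 2.96 in pachytene spermatocytes of cyclophosphamide rats, a difference of 2.98 ± 0.23 log2 (adjusted p = 8.08e-11, limma). In saline rats it was at 11.4 to 21.8 in round spermatids and 1.96 to 3.82 in pachytene spermatocytes, and differed by 2.59 ± 0.24. Or6d13b, 1 of the SCR G genes, differed by 2.78 ± 0.22 and 2.31 ± 0.22 in cyclophosphamide and saline rats. The pachytene samples held measurable Or6d13b, at 2.18 to 4.39 and 3.88 to 6.67 in the same treatments, against 17.3 to 34.1 and 16.1 to 31.5 in round spermatids.

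Or6d12 differed by 2.46 ± 0.33 and 1.95 ± 0.33, and Or6d12b by 1.91 ± 0.50 and 1.58 ± 0.50. Or6d13, the other SCR G gene, was at least 2.12-fold higher in cyclophosphamide rats and differed by 1.87 ± 0.41 in saline rats. Or6d14, which stands between Or6d12c and Or6d15 in the cluster, did not pass, at -0.47 ± 0.31 in cyclophosphamide rats. The windows at the coding start of Or6d12, Or6d12b, Or6d12c and Or6d13b were 73.9% to 88.5% identical to each other, and that of Or6d14 was 49.6% to 51.3% identical to theirs.

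Other receptors outside these families also rose. Or8s10 was at 12.2 to 22.6 in round spermatids and 1.06 to 2.64 in pachytene spermatocytes of cyclophosphamide rats, and at 12.8 to 18.3 and 1.26 to 3.39 in those of saline rats. Its differences were 3.48 ± 0.24 (adjusted p = 9.43e-12, limma) and 2.92 ± 0.24 log2, with no overlap. Or4c31 was at 86.3 to 224 in round spermatids and 6.57 to 23.7 in pachytene spermatocytes of cyclophosphamide rats, and at 69.3 to 235 and 6.09 to 50.2 in those of saline rats, so it differed by 3.40 ± 0.45 and 2.61 ± 0.45 and was detected in every sample. Its round spermatid values followed the slide, since the 6 arrays on slide 1 were at 69.3 to 135 and the 6 on slide 2 at 173 to 235. Within slide 1 its difference was 2.81 in cyclophosphamide rats and 1.86 in saline rats, and within slide 2 it was 3.04 and 2.09. Each of these rests on 1 pachytene array per treatment. Or2y14 was at 38.7 to 94.8 in round spermatids and 9.05 to 18.1 in pachytene spermatocytes of cyclophosphamide rats, and at 49.1 to 68.8 and 13.3 to 21.7 in those of saline rats, and differed by 2.41 ± 0.21 and 1.81 ± 0.21.

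Some receptors were seen in round spermatids alone. Or2ag13 was at 3.99 to 7.83 in round spermatids of cyclophosphamide rats and 3.46 to 7.13 in those of saline rats and above background on no pachytene array, so its rise there has the bounds of at least 3.81-fold in cyclophosphamide rats and at least 4.21-fold in saline rats. Or1j16b was at 4.63 to 7.88 in round spermatids of cyclophosphamide rats and 3.26 to 5.38 in those of saline rats, with bounds of at least 3.59-fold and at least 3.24-fold. With normexp the Or2ag13 difference was 0.85 and 0.84 log2 in cyclophosphamide and saline rats. That of Or1j16b was 0.63 in cyclophosphamide rats, and all 3 were below these bounds. Both genes entered the tests through their round spermatid arrays alone, so no p is given. Olr673 was at least 1.93-fold higher in saline rats, but with normexp its difference was 0.45 log2, below that bound. It could not be tested in cyclophosphamide rats, where 3 of 6 round spermatid arrays were above background. In all, 13 of the 171 genes were above background on no pachytene array.

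By family, all 4 detected Or1f receptors were higher in both treatments, but 3 of 4 in each with normexp and 2 of 4 in saline rats on slides 1 and 2. The 4 Or2y receptors were higher in cyclophosphamide rats, 3 of them with normexp or on slides 1 and 2, and 3 were higher in saline rats. Of 5 tested Or4c receptors 4 were higher in cyclophosphamide rats and 3 in saline rats, but 1 in each treatment with normexp and 1 in saline rats on slides 1 and 2. Of 5 tested Or8b receptors 2 were higher in each treatment, and 1 in saline rats with normexp. Of all tested genes 38.8% were higher in cyclophosphamide rats and 38.3% in saline rats, and 33.8% and 34.2% with normexp. A count of 2 of 5 is thus near that background, and 1 of 5 with normexp is below it. Or1d2, the rat gene with the symbol of the human receptor known from sperm chemotaxis experiments, differed by 0.79 ± 0.18 and 0.55 ± 0.18 in cyclophosphamide and saline rats and passed in both. Or51e1 differed by 0.06 ± 0.16 in each treatment and did not pass. Both were named after their values were seen.

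Fewer receptors were higher in pachytene spermatocytes, and Or6s1 was among them. It was at 20.8 to 32.8 in round spermatids (median 24.8) of cyclophosphamide rats, against 96.7, 56.2, 72.7, 96.5 and 70.4 in pachytene spermatocytes. In saline rats it was at 19.0 to 28.1 in round spermatids (median 26.2), against 76.7, 28.1, 46.1, 111 and 60.1. The groups did not overlap in cyclophosphamide rats and met at 28.1 in saline rats, where saline rat 16 had the lowest pachytene value. Its differences were -1.58 ± 0.25 (adjusted p = 4.58e-06, limma) and -1.22 ± 0.25 log2.

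Or13p4 fell to 1.63 to 4.82 in round spermatids of cyclophosphamide rats, against 7.80 to 13.0 in pachytene spermatocytes, a difference of -1.76 ± 0.26. In saline rats it was at 3.27 to 5.31 in round spermatids, against 8.03 to 15.1, a difference of -1.29 ± 0.26. Or5aq1d differed by -1.42 ± 0.22 and -1.25 ± 0.22, Or6al2 by -0.83 ± 0.20 and -0.80 ± 0.20, and Or10g9b, at 27.9 to 36.7 against 45.5 to 59.7 in cyclophosphamide rats, by -0.69 ± 0.13 and -0.78 ± 0.13. The 10 receptors lower in both treatments are Or6s1, Or13p4, Or5aq1d, Or6al2, Or10g9b, Or5h18, Or52m1, Or2ak6, Or4a80 and Or51b6, the last of them named because the count is complete with it. Or4a80 lost both calls with slide as a block, as given below.

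In the Or5h family no tested member was higher in round spermatids. Of 13 Or5h genes with a probe 6 were detected, and 2 of 5 tested were lower in cyclophosphamide rats and 1 of 4 in saline rats, where 40.4% and 37% of all genes were. With slide as a block 1 was higher and 2 lower in cyclophosphamide rats, on slides 1 and 2 alone 1 was higher and 1 lower, and in saline rats 0 were lower by either. Or5h18 was at 2.01 to 4.13 in round spermatids of cyclophosphamide rats, against 16.2, 6.32, 14.1, 13.5 and 7.66 in pachytene spermatocytes, and differed by -1.84 ± 0.45. In saline rats the groups overlapped, at 1.39 to 6.85 in round spermatids against 13.0, 3.20, 3.33, 19.1 and 5.29, and the difference was -1.27 ± 0.45 (adjusted p = 0.0137, limma). Or5h18 did not pass on slides 1 and 2 alone, with -1.2 and -1.24 (adjusted p of 0.0569 and 0.0539), nor in saline rats with slide as a block, with -0.93 (adjusted p = 0.134). Or5h24 was above background on no round spermatid array and was at least 2.12-fold lower there in cyclophosphamide rats. Its pachytene levels in these rats were 1.45 to 4.73. With normexp its difference was -0.77 log2, smaller in size than that bound.

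**Figure D5:**
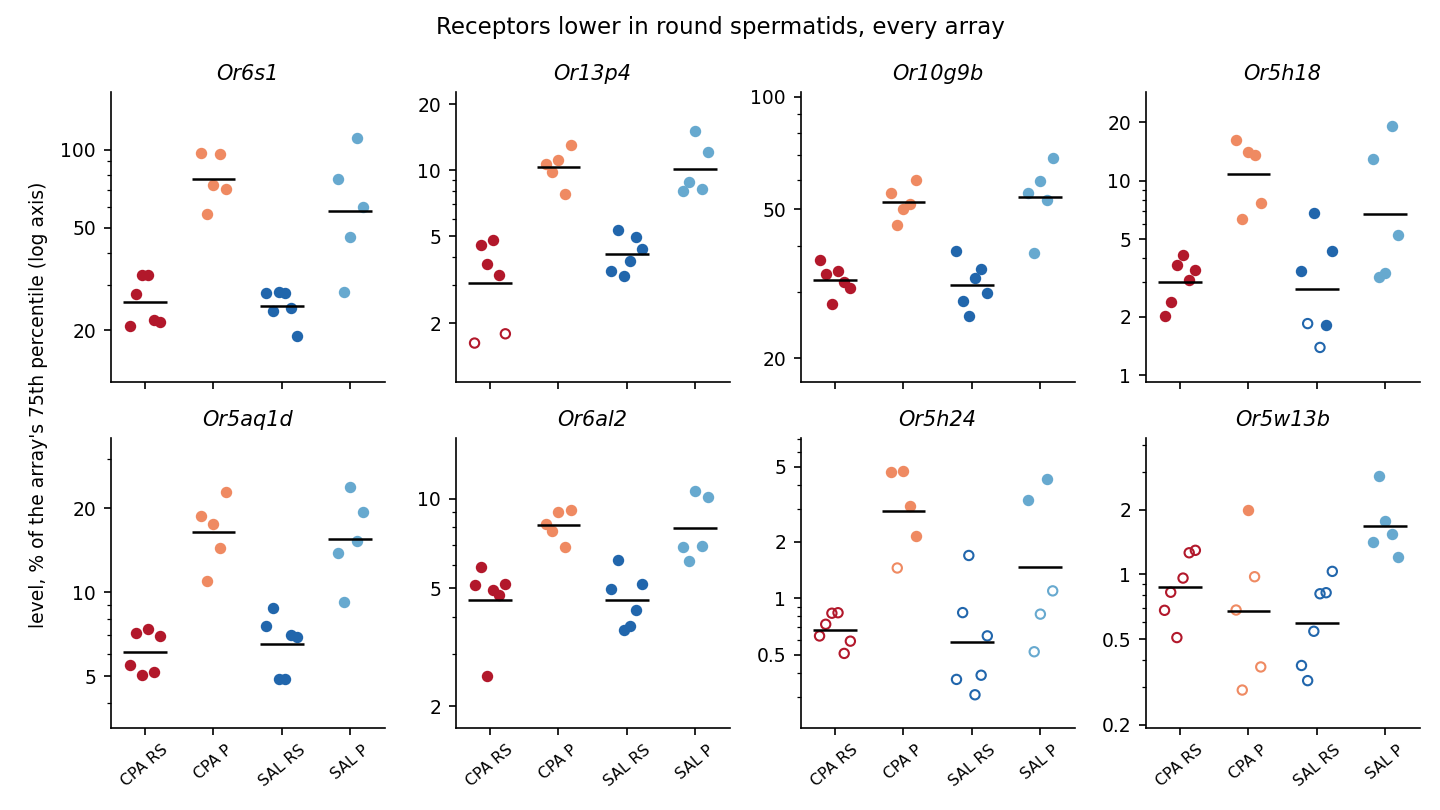
Levels of 8 receptors that were lower in round spermatids (RS) than in pachytene spermatocytes (P) of cyclophosphamide (CPA) or saline (SAL) rats, on a log axis in percent of the array's 75th percentile, with 1 point per rat, open where not above background, and the bar at the geometric mean. Or13p4 and Or5aq1d do not overlap between cell types in either treatment, while Or5h18 overlaps in saline rats, where its pachytene values run from 3.20 to 19.1.

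Or5w13b was above background on all 5 pachytene arrays of saline rats, at 1.2 to 2.87, on 1 of 5 in cyclophosphamide rats and on no round spermatid array. It was at least 1.28-fold lower in round spermatids of saline rats, and did not pass with slide as a block (-0.93, adjusted p = 0.0709). Smaller falls passed in 1 treatment for Or51i2, at -0.70 ± 0.22 in cyclophosphamide rats and -0.35 ± 0.22 in saline rats, and for Or10a5, at -0.97 ± 0.22 and -0.48 ± 0.22. Or13c7d and Or10am5 passed in saline rats alone, at -1.0 ± 0.34 and -0.62 ± 0.21, against -0.62 ± 0.34 and -0.42 ± 0.21 in cyclophosphamide rats. Or13a26c was at -0.07 ± 0.20 in cyclophosphamide rats and fell by 0.48 on the log2 scale in saline rats, a call that was lost in 9 of 33 alternatives, among them slide as a block (-0.38, adjusted p = 0.116, limma). Or52m1 passed in both, at -0.60 ± 0.14 and -0.37 ± 0.14.

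Among the receptors above background on all 22 arrays, the 12 with the smallest spread within groups included several with little difference between the cell types. Or1b1 averaged 5.03 in round spermatids and 4.27 in pachytene spermatocytes of cyclophosphamide rats, and 4.60 and 4.31 in those of saline rats, with differences of 0.24 ± 0.13 and 0.09 ± 0.13 that did not pass. Or2t35 and Or5p50 did not pass in either treatment, and Or2av10 passed in cyclophosphamide rats alone (0.48 ± 0.16, against 0.24 ± 0.16). Or2ak6 and Or4a80 were slightly lower in round spermatids, Or2ak6 by -0.34 ± 0.11 and -0.39 ± 0.11 and Or4a80 by -0.43 ± 0.14 in each treatment. With slide as a block Or4a80 was at -0.15 and -0.20 and did not pass (adjusted p of 0.278 and 0.163, limma). Or2ag16b, Or1x2d, Or1f20, Or8b37 and Or1f26 were higher, from 2.59 ± 0.15 for Or2ag16b to 0.37 ± 0.15 for Or1f26 in cyclophosphamide rats.

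The downstream parts of olfactory signalling were only partly present. Of 17 listed genes 15 had a probe and 10 could be tested, and 6 were higher and 1 lower in round spermatids in each treatment. Cnga4, a channel subunit, differed by 2.71 ± 0.18 and 2.24 ± 0.18 log2 in cyclophosphamide and saline rats, and Gng13, a G protein gamma subunit, by 1.64 ± 0.20 and 1.41 ± 0.20. Adcy3 rose by 0.64 ± 0.13 and 0.81 ± 0.13, and the phosphodiesterase Pde4a by 1.5 ± 0.09 and 1.25 ± 0.09. The desensitising genes Arrb2 and Grk3 rose by 1.42 ± 0.18 and 1.41 ± 0.22 in cyclophosphamide rats. The beta subunit Gnb1 was lower, at -1.24 ± 0.11 and -1.29 ± 0.11, and Gnal, which encodes the Golf alpha subunit, was above background on every array with 0.28 ± 0.24 and 0.20 ± 0.24, which did not pass. The channel subunit Cnga2 and the phosphodiesterase Pde1c were above background on no array.

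Among 10 genes for receptor trafficking or known partners in sperm, 3 of 8 tested were higher and 3 lower in cyclophosphamide rats, and 2 and 3 of 8 in saline rats. Reep6 rose by 2.12 ± 0.19 and 1.67 ± 0.19 and the soluble adenylyl cyclase gene Adcy10 by 1.84 ± 0.12 and 1.69 ± 0.12, while Reep1 was lower at -3.31 ± 0.26 and -2.92 ± 0.26. Rtp1, a chaperone that brings receptors to the surface of sensory neurons, was above background on no pachytene array of cyclophosphamide rats and on 5 of 6 round spermatid arrays, and Rtp2 was above background on no array. Of 12 olfactory sensory neuron markers Omp, Gap43, Stoml3 and Cnga2 were above background on no array. Of the 7 tested 4 were higher and 2 lower in round spermatids, with Lhx2, a transcription factor, at 2.73 ± 0.16 and 2.09 ± 0.16.

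No detected receptor passed the test between cyclophosphamide and saline rats. In pachytene spermatocytes 0 of 124 tested receptors passed, as did 0% of 18450 genes, and 9 of the 124 and 1345 of all genes had an unadjusted p under 0.05 (limma). In round spermatids 0 of 149 passed, against 0% of 18843 genes, with 3 and 626 at an unadjusted p under 0.05. The lowest adjusted p of a receptor was 0.681 in pachytene spermatocytes and 0.9997 in round spermatids. The 95% interval of the difference lay within 2-fold either way for 103 of the 124 receptors in pachytene spermatocytes and for 134 of the 149 in round spermatids.

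In pachytene spermatocytes 91 of the 124 receptors were lower in cyclophosphamide rats than in saline rats in sign alone, with a median of -0.11 log2, where 42.9% of all tested genes were lower and the median was 0.03. The receptor median depended on single arrays and slides, at -0.24 without saline rat 16, -0.02 without saline rat 28, -0.36 within slide 1, 0.10 within slide 4 and -0.00 with normexp. Of 17 round spermatid markers 16 were lower in the same arrays, with a median of -0.36, as were all 10 macrophage markers, with a median of -0.26, and none of these markers passed. The part of these cells in the receptor values was not tested. In round spermatids 102 of 149 receptors were above 0, with a median of 0.08, where 52.8% of all tested genes were below 0 and their median was -0.01. Without saline rat 17 the receptor median was 0.00, and without any other single array it was 0.03 to 0.15.

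The receptors with the smallest unadjusted p did not pass either. Or52s1b was at 1.13, 0.600, 1.17, 0.979 and 1.04 in pachytene spermatocytes of cyclophosphamide rats, none above background, against 1.62, 1.68, 1.83, 1.40 and 2.42 in those of saline rats, of which 4 were above background. The groups did not overlap, and the difference was -0.88 ± 0.21. Or52s1b entered this test through its saline arrays alone, so no p is given. Or2ag16b was at 3.28, 2.50, 3.24, 2.23 and 2.16 against 4.64, 3.82, 3.31, 4.27 and 4.17, which also did not overlap, at -0.61 ± 0.15. Or5w13b differed by -1.31 ± 0.42, and upward the smallest p were those of Or8s2 at 0.81 ± 0.28, Or5h24 at 1.0 ± 0.51 and Or4d6 at 0.31 ± 0.17. In round spermatids they were those of Or14j3e (0.48 ± 0.19), Or8g2 (0.60 ± 0.24) and Or1j16b (0.35 ± 0.17) upward, and of Olr35 (-1.27 ± 0.64), Or4f14d (-0.73 ± 0.38) and Or13p4 (-0.44 ± 0.24) downward.

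None of the Or10al genes tested passed between the treatments. Or10al4c was at -1.08 (95% interval -2.64 to 0.48) in pachytene spermatocytes and at -0.17 (-1.60 to 1.25) in round spermatids, cyclophosphamide minus saline, so differences of over 2-fold lie within both intervals. The difference of the drug effects, round spermatids minus pachytene spermatocytes, passed for 0 of 159 receptors and 0% of 19643 genes, with 15 and 1502 at an unadjusted p under 0.05 and a lowest adjusted p of 0.634 for receptors. Its 95% interval lay within 2-fold for 74 of the 159. The smallest unadjusted p was that of Or1j16b, at 1.19 ± 0.25, followed in its direction by Or52s1b at 1.0 ± 0.29 and Or5w13b at 1.86 ± 0.57. Or1j16b was above background on no pachytene array, and Or52s1b on none of cyclophosphamide rats. The pachytene part of these 2 values thus rests, in whole or in part, on signals not above background. In the other direction Or4f14d was at -0.88, Or10a5 at -0.49 and Or13p4 at -0.47.

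Gene structure was compared because receptors transcribed in spermatids have been described with spliced 5′ exons. Of the 171 detected receptors 27 (15.8%) span more than 1100 bases in RefSeq, introns included, against 91 of the 979 probed receptors that were not detected (9.3%), and 17 of the 85 that were higher in cyclophosphamide round spermatids (20%). Of the 16 genes plotted by array, 7 have such a longer span, namely Or10al5b, Or2y14, Or6d12c and Or8s10 among those higher in round spermatids and Or5aq1d, Or5h18 and Or5w13b among those lower.

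For 8 of the 171 genes more than 1 probe was present, and the probe with the highest mean was used. The other probe of Or1f20 gave 1.19 log2 in cyclophosphamide rats, against 1.33 for the one used. The other probe of Olr1454 ran the opposite way, at -1.08 against 1.76, so the direction of Olr1454 depends on the probe. The other probes of the remaining 6 genes were above background on at most 2 arrays of a group.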

How the data were processed

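The deposited scanner files hold an intensity for each spot, the processed signal, which per the file headers Feature Extraction 10.7.3.1 had background-subtracted. Per the submitters' processing notes the version was 11.5.1.1. The authors also deposited a table of log2 values of 30507 probes, whose columns matched their own array (r of 1) after centring within a cell type, so it served as an alternative for the drug comparisons alone, and its exact steps are not known. Spots that were controls or marked as outliers were dropped, repeated spots were averaged by probe, and the log2 signal was set relative to each array's 75th percentile. Of 30367 probes 17998 (59.3%) were named through RefSeq accessions of GRCr8, and a gene kept its probe of highest mean.

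A gene was tested where it was above background on all but at most 1 array of a group compared. Group means over 22 arrays were fitted with limma 3.58.1 and statmod 1.5.0 in R 4.3.3, with Benjamini-Hochberg adjustment over all genes tested. Tables, alignments and figures used Python 3.11.15, pandas 2.3.3, matplotlib 3.10.9 and Biopython 1.88. The scripts were checked on simulated data. Slide, rat number, other normalizations, filters, left-out arrays and within-slide fits were alternatives. Normexp on median signals replaced the planned mean signals and was, like slides 1 and 2 together, chosen after seeing the data.

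The receptors and gene lists were chosen with earlier results of these data known. Genes named are Or10al4c and Or10al5b, the 12 least variable of those detected on all arrays, the 10 largest rises and falls that passed in each cell comparison, the 3 smallest p in each direction of the drug comparisons, the 5 genes most like Or10al4c and Or10al5b, the genes next to the detection threshold, and members of the families and lists described. The number of arrays limits the precision. Protein sequences and probe sequences were not used here.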

Additional observations from a re-analysis of the deposited data

Results flagged for a closer look

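A sample was singled out where its distance from the nearest other sample of its group was large against the whole range of the group (Dixon's test at 95%). Chance gives about 1 in 20 groups, and 11 of 188 (5.85%) were found. All levels are in percent of the array's 75th percentile.

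The array of cyclophosphamide rat 16 in round spermatids had 106 of the 171 receptors above background, against 147 to 168 on the other 5. On the same array Or6al2 was at 2.54, against 4.73 to 5.89 on the others, and Or2ag1 at 1.02, against 1.71 to 2.28. In the same group Or14j3e was at 3.82 in rat 25, against 4.74 to 5.24, and Or1j16b at 7.88 in rat 14, against 4.63 to 5.34.

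In pachytene spermatocytes of cyclophosphamide rats Or52s1b was at 0.600 in rat 15, against 0.979 to 1.17 in the others, and Or8s2 was at 1.96 in rat 29, against 3.19 to 3.51. In pachytene spermatocytes of saline rats Or10al4c was at 0.320 in rat 16, not above background, against 3.09 to 7.69 in the other 4.

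In round spermatids of saline rats Olr673 was at 0.924 in rat 25, against 2.18 to 3.31, Or1f26 at 25.8 in rat 16, against 15.0 to 17.2, and Or8s2 at 1.05 in rat 15, against 1.60 to 1.88. No explanation was tested for any of these samples.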

How the results depend on the processing

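The counts of receptors called between the cell types stayed within 1.5 times of those reported under most alternatives. The exceptions were normexp on median signals, with 53 higher in cyclophosphamide rats against 85, and the fits within single slides, which hold 3 round spermatid arrays and 1 pachytene array per treatment and assume that the lone array varies like the other groups. Within slide 1, 4 receptors were lower in cyclophosphamide rats against 14, and in saline rats 39 were higher against 68 and 5 lower against 15. Within slide 2, 9 were lower in cyclophosphamide rats. The fits within slides use fewer arrays, and for normexp the cause was not tested. Slides 1 and 2 together gave 76 higher (50.7%) and 10 lower (6.67%) in cyclophosphamide rats, against 36.7% and 36.5% of all genes in that fit. In saline rats they gave 48 higher (32.7%) and 12 lower (8.16%), against 34.6% and 33.7%. Leaving out 1 array at a time gave 77 to 87 higher and 13 to 18 lower in cyclophosphamide rats, and 60 to 74 higher and 11 to 18 lower in saline rats. With the rat number as a replicate block the counts were 85 and 14, and 68 and 15, which equal the reported counts. The numbers did not pair the samples clearly, since same-numbered samples correlated at -0.088 to 0.381 over 6 pairs. In the drug comparisons 0 receptors passed in every alternative except within slide 3. There 2 cyclophosphamide samples of pachytene spermatocytes stood against 1 saline sample, and Or5h18 and Or5h24 were higher in the cyclophosphamide samples. Calls in that fit were not limited to receptors, and with 1 array in a group they are not counted here. Leaving out 1 array gave 0 to 0 in the drug comparisons. Of the named receptors' values under the alternatives, 2592 kept their sign and their side of the threshold, 57 lost the call, 15 gained one and 17 changed sign. Of these 17 only Or4a80 had a call in the reported fit, and it was at 0.023 in cyclophosphamide rats within slide 2 (adjusted p = 0.922, limma). In the same comparison Or1b1 was at -0.023 with normexp, Or2t35 at -0.16 with normexp, -0.17 with quantile normalization and -0.041 to 0.072 with 1 array left out, below 0 in 3 such fits, and Or5p50 at 0.063 on slides 1 and 2 and 0.26 within slide 1. In saline rats Or1b1 was at -0.060 with normexp, -0.040 with quantile normalization and -0.048 to 0.20 with 1 array left out, below 0 without saline rat 16, Or2t35 at 0.096 within slide 1 and Or5p50 at 0.0061 within slide 2. Between the treatments in pachytene spermatocytes Or4d6 was at -0.12 within slide 2, and Or5h24 at -1.2 and Or8s2 at -0.081 within slide 1. The planned normexp on mean signals was not run, as the files used here hold median signals. Detection at 3 arrays would give 194 receptors and detection on every array of a group 134.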

Other observations

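RefSeq also lists tpcr names, given to receptor clones from testis RNA, among the synonyms of Or1f20, Or2t1 and Or4c52, which were looked up after their values were seen. Or2t1 averaged 4.55 percent of the 75th percentile in round spermatids and 2.08 in pachytene spermatocytes of cyclophosphamide rats, and 4.34 and 2.37 in those of saline rats, with differences of 1.13 ± 0.23 and 0.87 ± 0.23 log2. Or4c52 differed by 0.79 ± 0.23 in both treatments and Or1f20 by 1.33 ± 0.12 and 1.2 ± 0.12 in cyclophosphamide and saline rats. All 3 passed in both treatments (limma). Or52b2, which holds the TGACGT match along with Or8s10 and Or2y14, was at least 2.41-fold higher in round spermatids of cyclophosphamide rats and differed by 1.12 ± 0.21 in saline rats.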
